A study of Homo sapiens with 18 samples.

Results

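The DNA damage signalling and repair genes examined here are 50 named genes. All of them were found by symbol among the 36576 genes of an expression table from human cells, labelled as a lung cancer line, exposed to nanomaterials. The genes are a list of names and fall into 7 groups by repair route. The genes, the groups and the further gene lists counted below were chosen with earlier results of these data known. The cells, labelled A549, a lung adenocarcinoma line, were exposed for 24 h to 10 mg/L BPQD (black phosphorus quantum dots), exposed for 24 h to 100 mg/L TiO2 (titanium dioxide), or left untreated as the control. All groups shared the same medium, and no genetic change was made in any of them. Each group had 3 input libraries of total RNA and 3 libraries of RNA precipitated with an antibody against N6-methyladenosine (m6A), a methyl mark of mRNA. Levels are the authors' FPKM values (fragments per kilobase of transcript, scaled for library size) from the 9 input libraries. The authors' deposited tables of differential m6A peaks compare each material with the control. The doses of the materials differ by weight, so a difference between them is one between these exposures as given.

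Cells detect broken or blocked DNA through the kinases ATM, ATR and DNA-PK, which mark the lesion and slow the cell cycle through CHEK1 and CHEK2. Double-strand breaks are then joined directly by the Ku and DNA-PK machinery or copied from the sister chromatid by homologous recombination, which is used mainly in S and G2 phase. Damaged bases and single-strand breaks, mispaired bases, bulky adducts and interstrand crosslinks are handled by base excision, mismatch repair, nucleotide excision and the Fanconi anaemia pathway.

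Libraries of 1 group lay closer to each other than to those of other groups, with a correlation of log2 values of 0.98 to 0.983 within groups and 0.966 to 0.975 between them. The FPKM summed over all genes was 212891 to 213976 in BPQD libraries, 219458 to 219676 in TiO2 libraries and 221580 to 222818 in control libraries. Read depth is unknown, so values carry no counting error. The labels do not say whether replicates were separate cultures, and the p-values reflect the spread among these libraries alone, which may be technical. In bulk RNA a lower level per cell and fewer cells of a kind cannot be told apart. The label was set against 6 genes. CDKN2A, which A549 lacks through a homozygous deletion, was at 19.3 to 27.4 FPKM in the 9 libraries. The cells are therefore called by their label only. AKR1B10, AKR1C1, ALDH1A1, SFTPB and NKX2-1 reached at most 0.998, 1.14, 0.116, 0.0336 and 0.0970 FPKM, and no expected level in A549 is given here for them. Of 7 epithelial markers, CDH1 and KRT19 stayed under 1 FPKM in every library. The epithelial sum was 855 to 875 FPKM with BPQD, 956 to 1051 with TiO2 and 1158 to 1245 in the control. Summed levels were 11.9 to 13.1, 17.8 to 23.2 and 11.4 to 13.6 FPKM for 6 leukocyte markers with BPQD, with TiO2 and in the control, nearly all of it CD68. For 7 fibroblast markers they were 13.9 to 24.8, 27.9 to 37.7 and 29.3 to 29.8 FPKM in that order, most of it LUM. For 5 endothelial markers they were 1.22 to 1.38, 2.16 to 3.92 and 3.03 to 3.73 FPKM, nearly all of it CDH5. Fibroblast markers did not move together. With TiO2 COL1A1 was at 1.52 to 1.79 FPKM, against 2.88 to 3.39 in the control, and FAP at 1.77 to 1.99 against 0.977 to 1.25. No marker was at 0 in all libraries, and the part of these differences in the results below was not tested.

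Repair genes were more often higher than lower with BPQD, and were split evenly with TiO2. Expression was tested with limma on log2(FPKM + 1) over the 12224 genes that averaged 1 FPKM or more, which all 50 repair genes passed. A gene is called higher or lower at a Benjamini-Hochberg adjusted p under 0.05, and fold changes (log2, ± SE) are on the log2(FPKM + 1) scale, which understates the change of low genes. With BPQD, 20 of the 50 were higher than in the control and 3 lower, which is 40% and 6.0%, where 20.6% and 23.4% of all tested genes were called in those directions. Their median log2 fold change was 0.12, against -0.01 for all tested genes. With TiO2, 11 were higher and 10 lower than in the control (22.0% and 20.0%), close to the 17.3% and 20.5% of all tested genes, with medians of 0.03 and -0.02. Between the materials, 15 were higher and 4 lower with BPQD than with TiO2 (30% and 8.0%), where 19.0% and 18.6% of all tested genes were called. The direction of calls depended on scaling. With values rescaled to a fixed sum per library, all tested genes were called higher in 58.3% rather than 46.9% of calls for BPQD against control and in 60.5% rather than 50.5% for BPQD against TiO2. The repair genes then had 27 higher and 3 lower with BPQD than in the control, where 25.9% and 18.5% of all tested genes were called, and 19 higher and 3 lower with BPQD than with TiO2, where 23.1% and 15.1% were called. Both exposures were compared with the same 3 control libraries, so their calls are not independent, and the values are given side by side.

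**Figure D1:**
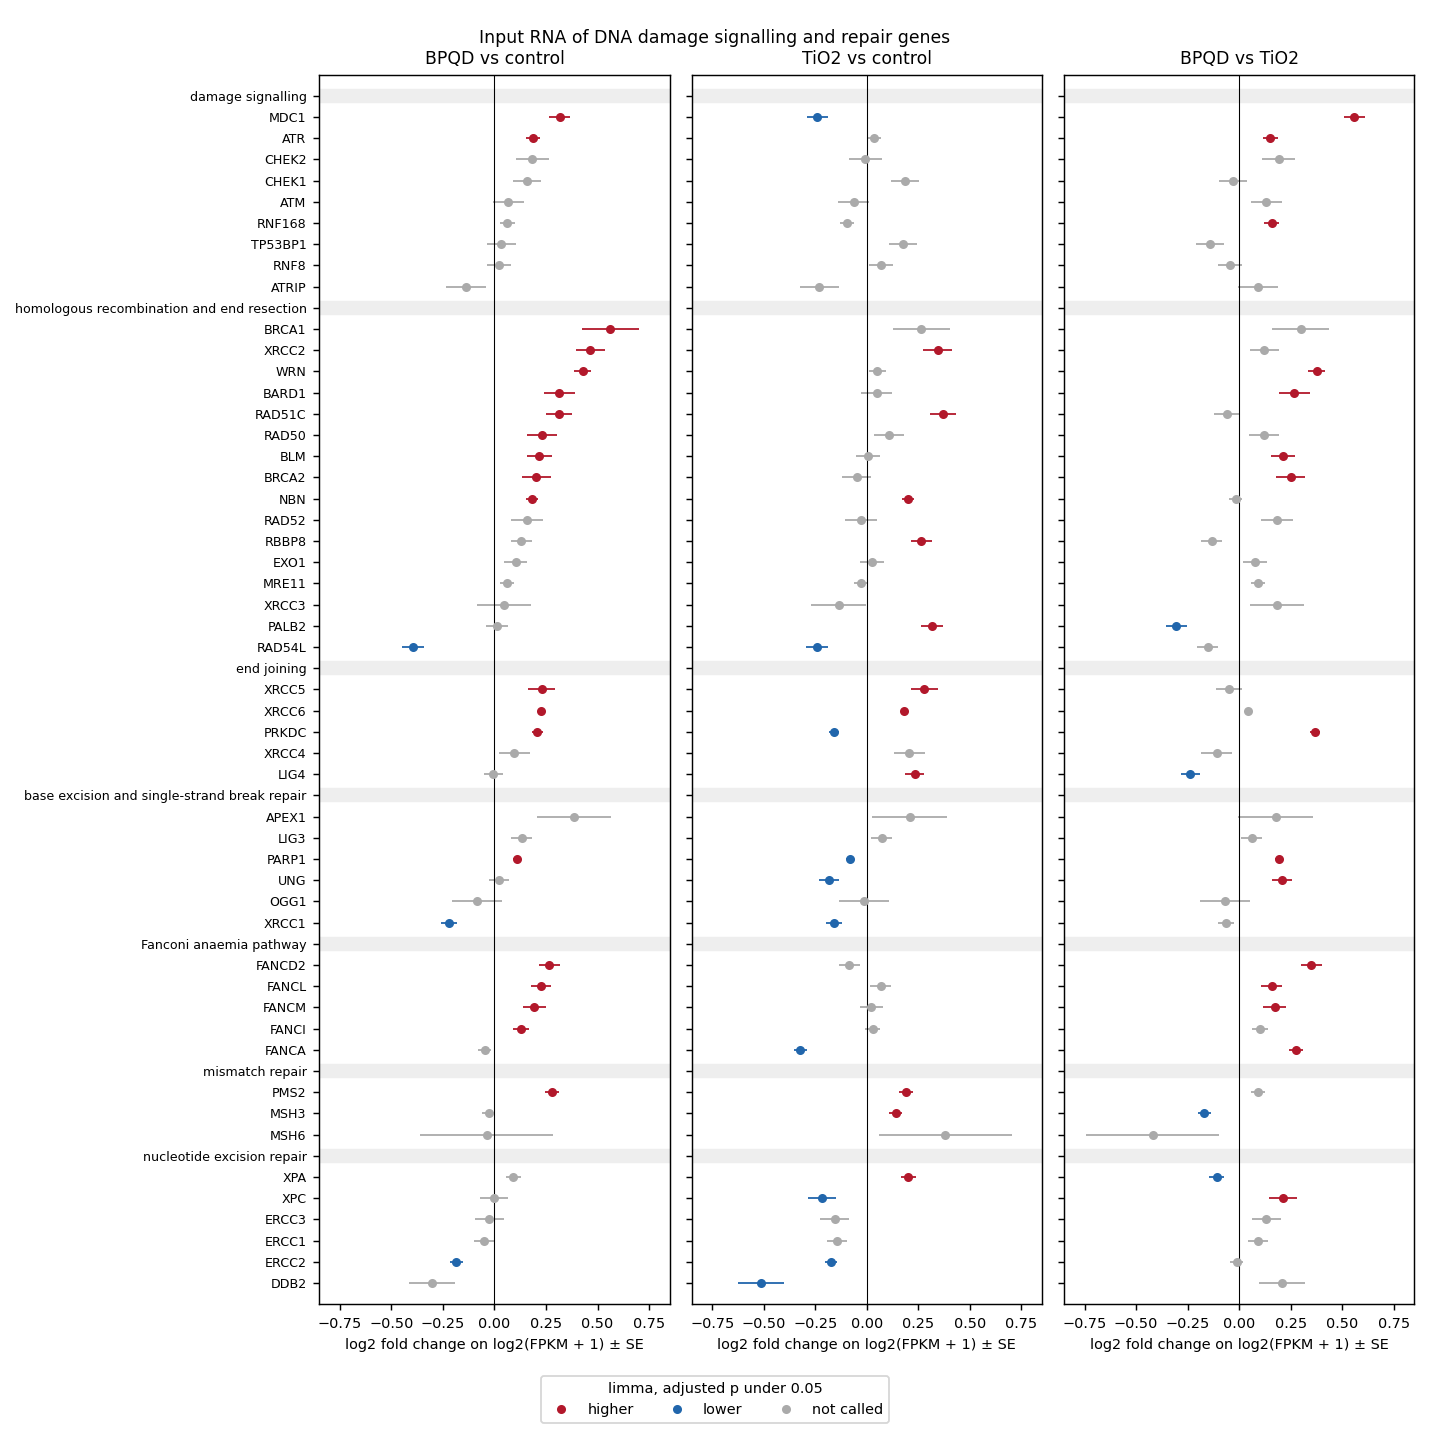
Log2 fold change on the log2(FPKM + 1) scale with its SE for the 50 genes, by repair route, for each exposure against the control and, in the panel at the right, for BPQD against TiO2 (3 libraries a group). Red points were called higher, blue points lower and grey points neither. MDC1 stands at 0.32 with BPQD and -0.24 with TiO2, and PALB2, LIG4 and FANCA moved with TiO2 alone among the calls against the control.

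Of the 9 damage signalling genes, MDC1 and ATR rose with BPQD, MDC1 fell with TiO2, and 7 of 9 and 8 of 9 were not called. The 22.2% higher with BPQD is near the 20.6% of all tested genes, and 11.1% were lower with TiO2 against 20.5%. MDC1 (ENSG00000137337, GRCh38 chromosome 6, 30699807 to 30717447, minus strand) encodes the scaffold that binds phosphorylated histone H2AX beside a break and recruits RNF8. It had 19.7, 18.6 and 20.1 FPKM with BPQD, 12.9, 13.1 and 12.7 FPKM with TiO2, and 15.8, 14.2 and 16.3 FPKM in the control. The groups do not overlap, and the control lies between the exposures. Its log2 fold change was 0.32 ± 0.05 with BPQD (limma adjusted p = 0.0018) and -0.24 ± 0.05 with TiO2 (limma adjusted p = 0.00797). The 250 bases before its start in RefSeq (GRCh38.p14, chr6:30717282-30717531, minus strand, printed 5′ to 3′), a start 166 bases from that in the deposited table, are shown because MDC1 moved in opposite directions. Capitals mark matches, on either strand, to a CCAAT box (CCAAT), a GC box (GGGCGG), the E2F sites TTTCCCGC and TTTGGCGC and the cell cycle homology region TTTGAA.
MDC1: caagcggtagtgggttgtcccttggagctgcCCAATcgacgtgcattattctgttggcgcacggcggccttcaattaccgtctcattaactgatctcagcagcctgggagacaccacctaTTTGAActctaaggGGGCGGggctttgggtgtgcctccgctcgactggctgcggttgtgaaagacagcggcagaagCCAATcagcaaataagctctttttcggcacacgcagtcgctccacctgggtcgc
It holds 2 CCAAT matches, 1 GC box match and 1 TTTGAA match. Such windows were found for 45 of the 50 repair genes. Of these, 22 hold CCAAT (48.9%, against 35.9% of 8525 tested genes), 31 GGGCGG (68.9% against 69.6%), 3 TTTGAA (6.67% against 8.06%) and 1 each TTTCCCGC (2.22% against 2.45%) and TTTGGCGC (2.22% against 1.01%).

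ATR encodes the kinase that responds to single-stranded DNA at stalled forks. It had 5.61, 5.51 and 5.55 FPKM with BPQD, 4.69, 5.08 and 4.96 FPKM with TiO2 and 4.61, 4.92 and 4.76 FPKM in the control, so every BPQD library lay above the other 6. It rose with BPQD (log2 fold change 0.19 ± 0.04, limma adjusted p = 0.00398) and was not called with TiO2. The ATR partner ATRIP, which brings the kinase to coated single-stranded DNA, was not called in either comparison, although its level relative to ATR was 0.693 to 0.754 with BPQD, 0.632 to 0.862 with TiO2 and 0.827 to 1.01 in the control, a ratio of FPKM values for which no test was run. ATRIP had a log2 fold change of -0.23 ± 0.10 with TiO2 (limma adjusted p = 0.099), which was called without TiO2 replicate 2 (adjusted p = 0.0187). The checkpoint kinase genes CHEK1 and CHEK2 had log2 fold changes of 0.16 and 0.18 with BPQD (limma adjusted p = 0.098 and 0.104). CHEK2 was called without control replicate 3 (adjusted p = 0.0105), and both were called after rescaling (adjusted p = 0.0411 and 0.0489). With TiO2 CHEK1 had 0.19 ± 0.07 (limma adjusted p = 0.0658), and was called without TiO2 replicate 3 or BPQD replicate 1 (adjusted p = 0.0391 and 0.0464). TP53BP1, whose product holds back end resection, had 0.18 ± 0.07 with TiO2 (limma adjusted p = 0.0844) and was called without BPQD replicate 3 (adjusted p = 0.0381). ATM, the kinase activated by double-strand breaks, stayed between 2.44 and 3.22 FPKM in all 9 libraries and was not called in any comparison. RNF8 and RNF168, ubiquitin ligases that act after MDC1, were not called against the control, with 3.37 to 3.75, 3.60 to 3.76 and 3.21 to 3.85 FPKM for RNF8 with BPQD, with TiO2 and in the control.

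Homologous recombination and end resection, the route with the most of the 50 genes, had 9 of 16 genes higher and 1 lower with BPQD (56.2% higher) and 5 higher and 1 lower with TiO2 (31.2% higher). Of all tested genes, 20.6% were higher and 23.4% lower with BPQD, and 17.3% higher and 20.5% lower with TiO2. XRCC2, RAD51C and NBN rose with both materials, RAD54L fell with both, BRCA1, BRCA2, BARD1, RAD50, BLM and WRN rose with BPQD alone, and PALB2 and RBBP8 rose with TiO2 alone. A call in 1 comparison and none in the other is no test of a difference, which is given for BPQD against TiO2 further on.

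XRCC2 and RAD51C encode related proteins that assist strand exchange in homologous recombination. XRCC2 (chromosome 7, 152644776 to 152676141, minus strand) had 13.8, 13.0 and 11.2 FPKM with BPQD, 11.9, 11.5 and 11.1 FPKM with TiO2 and 8.44, 9.0 and 9.10 FPKM in the control. Every exposed library lay above every control library, and the exposures overlap. Its log2 fold change was 0.47 ± 0.07 with BPQD (limma adjusted p = 0.00118) and 0.34 ± 0.07 with TiO2 (limma adjusted p = 0.0063). RAD51C had 3.35, 2.96 and 3.25 FPKM with BPQD, 3.60, 3.33 and 3.14 FPKM with TiO2 and 2.41, 2.55 and 2.15 FPKM in the control, and again both exposures lay above the control. It rose by 0.31 ± 0.06 and 0.37 ± 0.06 on the log2 scale (limma adjusted p = 0.00513 and 0.00293). RAD54L, a motor protein that acts in strand exchange, moved the other way. RAD54L (chromosome 1, 46247688 to 46278473, plus strand) had 12.3, 12.9 and 12.2 FPKM with BPQD, 14.8, 12.8 and 14.4 FPKM with TiO2 and 16.3, 16.8 and 17.1 FPKM in the control. All exposed libraries lay below all control libraries, with log2 fold changes of -0.39 ± 0.05 (limma adjusted p = 0.000664) and -0.24 ± 0.05 (limma adjusted p = 0.00841). The 250 bases before each RefSeq start (GRCh38.p14, XRCC2 at chr7:152676142-152676391 on the minus strand, RAD54L at chr1:46247438-46247687 on the plus strand) are shown as a pair of genes of 1 route that moved in opposite directions with both materials, and capitals mark the same motifs.
XRCC2: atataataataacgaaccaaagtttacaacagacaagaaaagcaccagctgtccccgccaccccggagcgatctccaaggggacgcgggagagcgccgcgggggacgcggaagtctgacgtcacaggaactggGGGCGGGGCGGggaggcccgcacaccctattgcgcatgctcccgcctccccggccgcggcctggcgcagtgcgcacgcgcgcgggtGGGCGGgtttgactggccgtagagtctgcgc
RAD54L: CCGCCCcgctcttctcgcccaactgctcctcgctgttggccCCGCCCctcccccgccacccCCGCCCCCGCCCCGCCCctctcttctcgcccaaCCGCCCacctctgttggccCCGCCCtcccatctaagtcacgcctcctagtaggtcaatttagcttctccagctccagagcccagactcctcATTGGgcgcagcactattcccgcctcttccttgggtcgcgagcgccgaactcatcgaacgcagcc
XRCC2 holds 3 GC box matches and RAD54L holds 7, some of which overlap each other, and RAD54L also holds 1 CCAAT match. Neither holds TTTCCCGC, TTTGGCGC or TTTGAA in this window.

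BRCA1 had the largest fold change of the 50 genes with BPQD. It encodes the ubiquitin ligase that promotes resection and, with BARD1 and PALB2, brings BRCA2 to the break. It had 9.62, 10.3 and 8.29 FPKM with BPQD, 7.46, 7.76 and 7.09 FPKM with TiO2 and 7.63, 4.77 and 5.94 FPKM in the control. The BPQD libraries lay above all others, while the control libraries were far apart and reached into the TiO2 range. Its log2 fold change was 0.56 ± 0.14 with BPQD (limma adjusted p = 0.0133), a ratio of means of 1.54, and 0.26 ± 0.14 with TiO2 (limma adjusted p = 0.179). Without control replicate 1, TiO2 was also called (0.41, adjusted p = 0.0263). An unnamed gene on the same strand (ENSG00000267002) overlaps the BRCA1 span over 21878 bases and had 5.33 to 5.73 FPKM with BPQD, 3.08 to 3.37 FPKM with TiO2 and 3.63 to 3.85 FPKM in the control, so reads of the pair may not be fully separated. BARD1, the partner of BRCA1, rose to 3.56, 3.73 and 3.61 FPKM with BPQD, against 2.92, 2.68 and 2.58 FPKM in the control (0.32 ± 0.08, limma adjusted p = 0.0118). PALB2, which bridges BRCA1 and BRCA2, had 5.06, 5.20 and 5.37 FPKM with BPQD, 7.19, 6.12 and 6.73 FPKM with TiO2 and 5.16, 5.06 and 5.25 FPKM in the control. Its TiO2 libraries stood above the other 6 (0.32 ± 0.05, limma adjusted p = 0.00249), and BPQD overlapped the control. BRCA2, a mediator of homologous recombination, was the lowest of the 50 genes, with 1.79, 1.42 and 1.34 FPKM with BPQD against 1.22, 1.13 and 1.20 FPKM in the control (0.20 ± 0.07, limma adjusted p = 0.0497). That call was at the threshold and was lost when any library other than BPQD replicate 3 was left out (adjusted p = 0.0598 to 0.125).

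The helicase genes WRN and BLM, mutated in Werner and Bloom syndromes, both rose with BPQD. WRN had 6.08, 6.03 and 6.40 FPKM with BPQD, 4.27, 4.71 and 4.59 FPKM with TiO2 and 4.24, 4.25 and 4.49 FPKM in the control. The BPQD libraries stood apart from the other 6 (0.43 ± 0.04, limma adjusted p = 0.000156), and TiO2 overlapped the control. BLM had 12.2, 12.2 and 12.1 FPKM with BPQD, 9.49, 10.2 and 11.5 FPKM with TiO2 and 10.6, 10.2 and 10.3 FPKM in the control. It rose by 0.22 ± 0.06 with BPQD (limma adjusted p = 0.0189), and missed the threshold when BPQD replicate 1 or 2 or control replicate 2 or 3 was left out (adjusted p = 0.0503 to 0.0563). MRE11, RAD50 and NBN form the complex that holds and trims broken ends, and its members differed. NBN rose with both materials, to 7.62 to 8.14 FPKM with BPQD and 8.01 to 8.05 FPKM with TiO2, against 6.72 to 7.04 FPKM in the control (0.18 ± 0.03 and 0.20 ± 0.03, limma adjusted p = 0.00241 and 0.00199). RAD50 rose with BPQD by 0.23 ± 0.07 (limma adjusted p = 0.0361), but not when BPQD replicate 1 or 2, TiO2 replicate 2 or control replicate 1 or 3 was left out (adjusted p = 0.0531 to 0.109). With TiO2 it was called without control replicate 2 (adjusted p = 0.0377). MRE11 was not called, at 9.27 to 10.3 FPKM in all 9 libraries. RBBP8 encodes CtIP, which starts resection with that complex, and rose with TiO2 by 0.26 ± 0.05 (limma adjusted p = 0.00519), to 18.6 to 19.3 FPKM against 15 to 16.4 FPKM in the control. With BPQD it had 0.13 ± 0.05 (limma adjusted p = 0.0705) and was called without BPQD replicate 2 (adjusted p = 0.0496) and after rescaling (adjusted p = 0.0233). The nuclease gene EXO1 and the recombination genes RAD52 and XRCC3 were not called against the control, with log2 fold changes of 0.10, 0.16 and under 0.1 with BPQD. EXO1 was called with BPQD without BPQD replicate 3 (0.16, adjusted p = 0.0231).

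**Figure D2:**
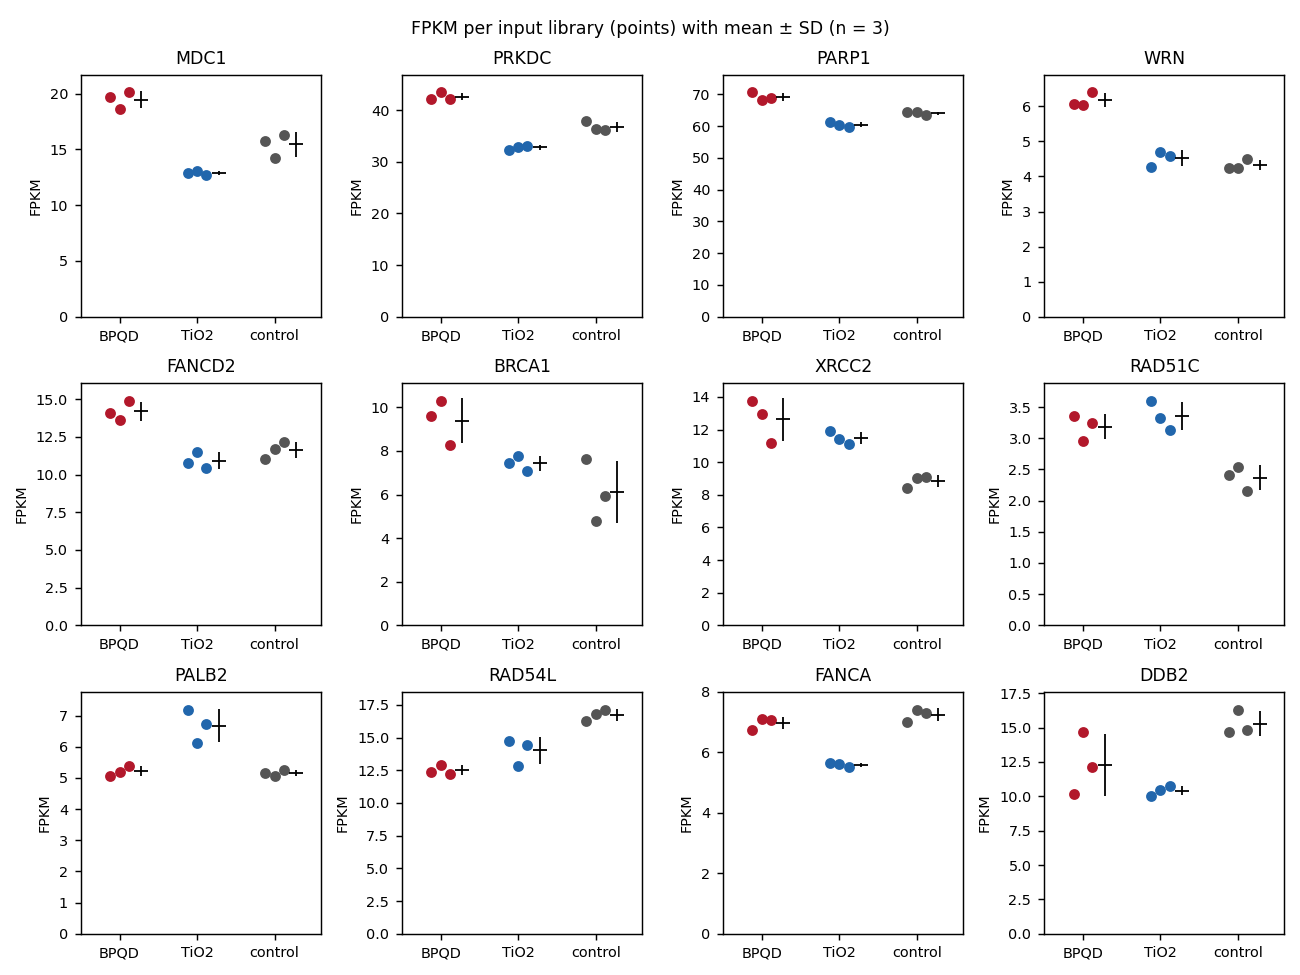
FPKM of 12 repair genes in each of the 3 input libraries of BPQD, TiO2 and control (points), with mean and SD at the right of each group. MDC1, PRKDC and PARP1 are highest with BPQD and lowest with TiO2, while XRCC2 and RAD51C are higher, and RAD54L lower, with both exposures than in the control.

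In end joining, both Ku genes rose with both materials, and the kinase gene that works with them was split. XRCC6 and XRCC5 encode Ku70 and Ku80, the ring that slides onto broken ends. XRCC6 (chromosome 22, 41621119 to 41664048, plus strand) had 216, 218 and 215 FPKM with BPQD, 209, 211 and 209 FPKM with TiO2 and 183, 187 and 185 FPKM in the control, with no overlap between groups. Its log2 fold change was 0.23 ± 0.02 with BPQD (limma adjusted p = 3.1e-05) and 0.18 ± 0.02 with TiO2 (limma adjusted p = 0.00011). XRCC5 had 91.1, 102 and 90.0 FPKM with BPQD, 95.9, 105 and 92.2 FPKM with TiO2 and 82.8, 82.2 and 75.7 FPKM in the control. All exposed libraries lay above the control, by 0.23 ± 0.06 and 0.28 ± 0.06 (limma adjusted p = 0.0232 and 0.0122), and the call with BPQD was lost without BPQD replicate 2 (adjusted p = 0.0646) or control replicate 3 (adjusted p = 0.0738). PRKDC encodes the catalytic subunit of DNA-PK, which Ku recruits. It had 42.3, 43.5 and 42.2 FPKM with BPQD, 32.3, 32.9 and 33.1 FPKM with TiO2 and 37.9, 36.3 and 36.2 FPKM in the control. The control again lay between the exposures without overlap, with log2 fold changes of 0.21 ± 0.03 (limma adjusted p = 0.000456) and -0.16 ± 0.03 (limma adjusted p = 0.00204). The PRKDC level was therefore 0.196 to 0.199 of the XRCC6 level in FPKM with BPQD, 0.155 to 0.158 with TiO2 and 0.194 to 0.207 in the control. LIG4, the ligase that seals these breaks, had 3.83, 4.25 and 3.96 FPKM with BPQD, 4.66, 4.95 and 5.11 FPKM with TiO2 and 4.09, 3.87 and 4.13 FPKM in the control, and rose with TiO2 alone (0.23 ± 0.05, limma adjusted p = 0.00597). Its cofactor gene XRCC4 had 0.21 ± 0.07 with TiO2 (limma adjusted p = 0.0626) and was called without BPQD replicate 3 (adjusted p = 0.0391).

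Base excision and single-strand break repair held 1 higher and 1 lower gene of 6 with BPQD, and none higher and 3 lower with TiO2. With BPQD these are 16.7% each, near the 20.6% and 23.4% of all tested genes. With TiO2 they are 0% and 50%, against 17.3% and 20.5%. XRCC1, the scaffold of single-strand break repair, fell with both materials. It had 8.25, 8.41 and 7.62 FPKM with BPQD, 8.63, 8.36 and 8.52 FPKM with TiO2 and 9.62, 9.86 and 9.32 FPKM in the control, with all exposed libraries below the control. Its log2 fold change was -0.22 ± 0.04 with BPQD (limma adjusted p = 0.00276) and -0.16 ± 0.04 with TiO2 (limma adjusted p = 0.0158), the second lost without TiO2 replicate 2 (adjusted p = 0.0525) or control replicate 2 (adjusted p = 0.0536). The ligase gene LIG3, whose product XRCC1 stabilizes, had 0.13 ± 0.05 with BPQD (limma adjusted p = 0.0776) and was called after rescaling (adjusted p = 0.0274). The XRCC1 level was 2.11 to 2.41 times the LIG3 level in FPKM with BPQD, 2.34 to 2.63 times with TiO2 and 2.85 to 3.07 times in the control. PARP1 encodes the enzyme that builds poly(ADP-ribose) at strand breaks and so recruits XRCC1. PARP1 (chromosome 1, 226360691 to 226408093, minus strand) had 70.6, 68.1 and 68.9 FPKM with BPQD, 61.2, 60.2 and 59.8 FPKM with TiO2 and 64.3, 64.4 and 63.5 FPKM in the control. The groups did not overlap, but the changes were small, at 0.11 ± 0.02 with BPQD (limma adjusted p = 0.00344) and -0.08 ± 0.02 with TiO2 (limma adjusted p = 0.0145). The 250 bases before its RefSeq start (GRCh38.p14, chr1:226408094-226408343, minus strand), which is also the start in the deposited table, are shown because an m6A peak described further on covers the first bases of the transcript.
PARP1: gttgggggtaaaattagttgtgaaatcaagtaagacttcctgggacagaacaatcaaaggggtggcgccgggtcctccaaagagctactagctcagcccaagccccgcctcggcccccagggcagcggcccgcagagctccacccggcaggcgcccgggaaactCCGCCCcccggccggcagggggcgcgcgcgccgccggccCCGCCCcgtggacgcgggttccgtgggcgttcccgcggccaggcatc
It holds 2 GC box matches, in capitals, and none of the other motifs searched. UNG encodes the glycosylase that removes uracil from DNA. It had 36.8, 36.3 and 39.3 FPKM with BPQD, 30.2, 32.7 and 34.3 FPKM with TiO2 and 37.1, 36.7 and 36.9 FPKM in the control. It fell with TiO2 by 0.19 on the log2 scale (SE 0.05, limma adjusted p = 0.0193), a call lost without control replicate 1 or 3 (adjusted p = 0.0536 and 0.0507). APEX1, the abasic site endonuclease gene, had 48.4, 48.3 and 43.6 FPKM with BPQD, 36.3, 55.8 and 34.4 FPKM with TiO2 and 36.3, 30.6 and 40.4 FPKM in the control. Its BPQD libraries all lay above the control (0.39 ± 0.18, limma adjusted p = 0.124), and TiO2 replicate 2 was the highest of the 9. Without that library BPQD was called against the control (0.39, adjusted p = 0.0203) and against TiO2 (0.39, adjusted p = 0.0364). OGG1, the 8-oxoguanine glycosylase gene, was not called, at 2.30 to 3.38 FPKM in all libraries.

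In the Fanconi anaemia pathway, 4 of 5 genes rose with BPQD and the fifth, FANCA, fell with TiO2. The shares are 80% and 20%, where 20.6% of all tested genes were higher with BPQD and 20.5% lower with TiO2. FANCD2 and FANCI encode the pair that is ubiquitinated at a crosslink. FANCD2 had 14.1, 13.6 and 14.9 FPKM with BPQD, 10.8, 11.5 and 10.4 FPKM with TiO2 and 11.1, 11.7 and 12.1 FPKM in the control. The BPQD libraries lay above the other 6 (0.27 ± 0.05, limma adjusted p = 0.00379). FANCL, the ubiquitin ligase gene for that step, rose to 13.1, 13.5 and 13.1 FPKM with BPQD, against 12.2, 10.5 and 10.9 FPKM in the control (0.22 ± 0.05, limma adjusted p = 0.00825). FANCM, a DNA translocase gene, had 2.49, 2.53 and 2.21 FPKM with BPQD against 1.84, 1.99 and 2.12 FPKM in the control (0.19 ± 0.05, limma adjusted p = 0.0217). FANCI rose by 0.13 ± 0.04 (limma adjusted p = 0.0246). Neither FANCM nor FANCI passed when BPQD replicate 1 or 2 or control replicate 1 or 2 was left out, with adjusted p = 0.054 to 0.0701 for FANCM and 0.0612 to 0.0747 for FANCI. FANCA, a core complex gene (chromosome 16, 89737549 to 89816657, minus strand), had 6.75, 7.11 and 7.06 FPKM with BPQD, 5.65, 5.60 and 5.51 FPKM with TiO2 and 6.99, 7.41 and 7.30 FPKM in the control. Its TiO2 libraries were below the other 6, with a log2 fold change of -0.32 ± 0.03 (limma adjusted p = 0.00023), and those of BPQD overlapped the control.

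Among the 3 mismatch repair genes, PMS2 rose with both materials and MSH3 with TiO2. That is 33.3% higher with BPQD and 66.7% with TiO2, against 20.6% and 17.3% of all tested genes. PMS2, an endonuclease of mismatch repair, had 8.41, 8.61 and 9.09 FPKM with BPQD, 8.16, 7.97 and 8.18 FPKM with TiO2 and 7.09, 6.86 and 7.01 FPKM in the control, with exposed libraries above the control in every case. Its log2 fold change was 0.28 ± 0.03 with BPQD (limma adjusted p = 0.000386) and 0.19 ± 0.03 with TiO2 (limma adjusted p = 0.00324). PMS2 has many pseudogenes of near-identical sequence, and how reads shared with them were assigned is not given in the sources used here. MSH3 and MSH6 are subunits of the complexes that recognise loops and mispairs. MSH3 had 4.35, 4.51 and 4.33 FPKM with BPQD, 5.18, 4.88 and 5.13 FPKM with TiO2 and 4.55, 4.45 and 4.50 FPKM in the control, and rose with TiO2 by 0.14 ± 0.03 (limma adjusted p = 0.0105). MSH6 could not be ordered. It had 11.7, 14.8 and 14.8 FPKM with BPQD, 23.9, 23.5 and 11.4 FPKM with TiO2 and 20.8, 10.7 and 12.4 FPKM in the control. High and low libraries occur within TiO2 and within the control, and the SE of its log2 fold changes was 0.32. FBXO11, which overlaps MSH6 on the other strand, was at 10.4 to 12.4 FPKM in all 9 libraries.

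Nucleotide excision repair was the route with no gene higher with BPQD. Of its 6 genes, ERCC2 fell with both materials, DDB2 and XPC fell with TiO2, and XPA rose with TiO2. With BPQD 16.7% were lower, against 23.4% of all tested genes. With TiO2 16.7% were higher and 50% lower, against 17.3% and 20.5%. DDB2, which recognises ultraviolet lesions and is a known p53 target, had 10.1, 14.6 and 12.1 FPKM with BPQD, 10.0, 10.5 and 10.7 FPKM with TiO2 and 14.7, 16.3 and 14.8 FPKM in the control. All exposed libraries were below the control, but those of BPQD were far apart. The log2 fold change was -0.51 ± 0.11 with TiO2 (limma adjusted p = 0.00883) and -0.30 ± 0.11 with BPQD (limma adjusted p = 0.0591), and without BPQD replicate 2 BPQD was called at -0.43 (adjusted p = 0.00612). XPC, the sensor of distorted helices, had 14.4, 12.6 and 13.6 FPKM with BPQD, 11.9, 11.3 and 11.3 FPKM with TiO2 and 13.1, 14.9 and 12.6 FPKM in the control. It fell with TiO2 by 0.22 on the log2 scale (SE 0.07, limma adjusted p = 0.0413), a call that held among the libraries left out in turn only without BPQD replicate 1 or 2 or control replicate 3, and was lost without each of the other 6 (adjusted p = 0.0603 to 0.105). XPA, which verifies the lesion, had 7.45, 7.27 and 7.84 FPKM with BPQD, 8.10, 8.15 and 8.30 FPKM with TiO2 and 6.71, 7.17 and 7.11 FPKM in the control. It rose with TiO2 by 0.20 ± 0.04 (limma adjusted p = 0.00384). ERCC2, a helicase subunit of TFIIH, had 9.97, 9.87 and 9.84 FPKM with BPQD, 10.2, 10.2 and 9.56 FPKM with TiO2 and 11.2, 11.2 and 11.7 FPKM in the control, below the control in all 6 exposed libraries. Its log2 fold changes were -0.18 ± 0.03 and -0.17 ± 0.03 (limma adjusted p = 0.00236 and 0.0039). ERCC3, the other TFIIH helicase gene, and ERCC1, a nuclease subunit gene, had -0.16 ± 0.07 and -0.14 ± 0.05 with TiO2 (limma adjusted p = 0.12 and 0.0533), and ERCC1 was called without control replicate 3 (adjusted p = 0.0115).

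Set directly against TiO2, BPQD gave higher levels of 15 repair genes and lower levels of 4. The 3 genes that moved in opposite directions against the control, MDC1, PRKDC and PARP1, were all higher with BPQD, by 0.56 ± 0.05, 0.37 ± 0.03 and 0.19 ± 0.02 on the log2 scale (limma adjusted p = 0.000148, 3.8e-05 and 0.000281). The MDC1 mean was 1.51 times as high with BPQD (19.5 ± 0.78 FPKM) as with TiO2 (12.9 ± 0.21 FPKM, SD over 3 libraries each). WRN, FANCD2 and FANCA were also higher with BPQD, by 0.38 ± 0.04, 0.35 ± 0.05 and 0.28 ± 0.03 (limma adjusted p = 0.000344, 0.00121 and 0.000451). PALB2, LIG4, MSH3 and XPA were lower with BPQD, by -0.30 ± 0.05, -0.24 ± 0.05, -0.17 ± 0.03 and -0.11 ± 0.04 (limma adjusted p = 0.00284, 0.00517, 0.00442 and 0.0476). Of the 11 genes called higher with BPQD and not called with TiO2, 8 also passed this direct test, and BRCA1, RAD50 and FANCI did not (log2 differences of 0.30, 0.12 and 0.10). By route, BPQD was higher than TiO2 for 4 of 5 Fanconi anaemia genes, 3 of 9 signalling genes (MDC1, ATR and RNF168) and 4 of 16 recombination genes (BRCA2, BARD1, BLM and WRN). These are 80%, 33.3% and 25% of the routes, where 19.0% of all tested genes were higher, so the recombination share is near that of all genes. The calls for BRCA2, BARD1, BLM, FANCL, FANCM, XPA and XPC in this comparison had adjusted p between 0.0244 and 0.0476 and depended on single libraries. BRCA2 did not pass without TiO2 replicate 2 or 3 (0.0745 and 0.071), BARD1 without any 1 BPQD library (0.0563 to 0.0752), and BLM without any 1 BPQD library or TiO2 replicate 1 or 2 (0.0532 to 0.069). FANCL did not pass without any 1 exposed library or control replicate 3 (0.0537 to 0.111), and FANCM without BPQD replicate 1 or 2, any 1 TiO2 library or control replicate 2 (0.0554 to 0.115). XPA did not pass without BPQD replicate 1 or 2, any 1 TiO2 library or control replicate 2 or 3 (0.059 to 0.135), and XPC without BPQD replicate 1 or 3, any 1 TiO2 library or control replicate 1 (0.0597 to 0.126). The XPA call was also lost after rescaling (limma adjusted p = 0.158) and after median centring (0.0599). Some calls were gained when a library was left out. They were RAD54L without TiO2 replicate 2 (adjusted p = 0.00579), RBBP8 without BPQD replicate 1 (0.0139), XRCC2 without BPQD replicate 3 (0.0183), RAD52 without TiO2 replicate 3 (0.0175), CHEK2 without control replicate 3 (0.0271), BRCA1 without control replicate 1 (0.0493), TP53BP1 without BPQD replicate 3 (0.033), FANCI without BPQD replicate 3 or TiO2 replicate 2 (0.0338 and 0.0492) and DDB2 without BPQD replicate 1 (0.0224).

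**Figure D3:**
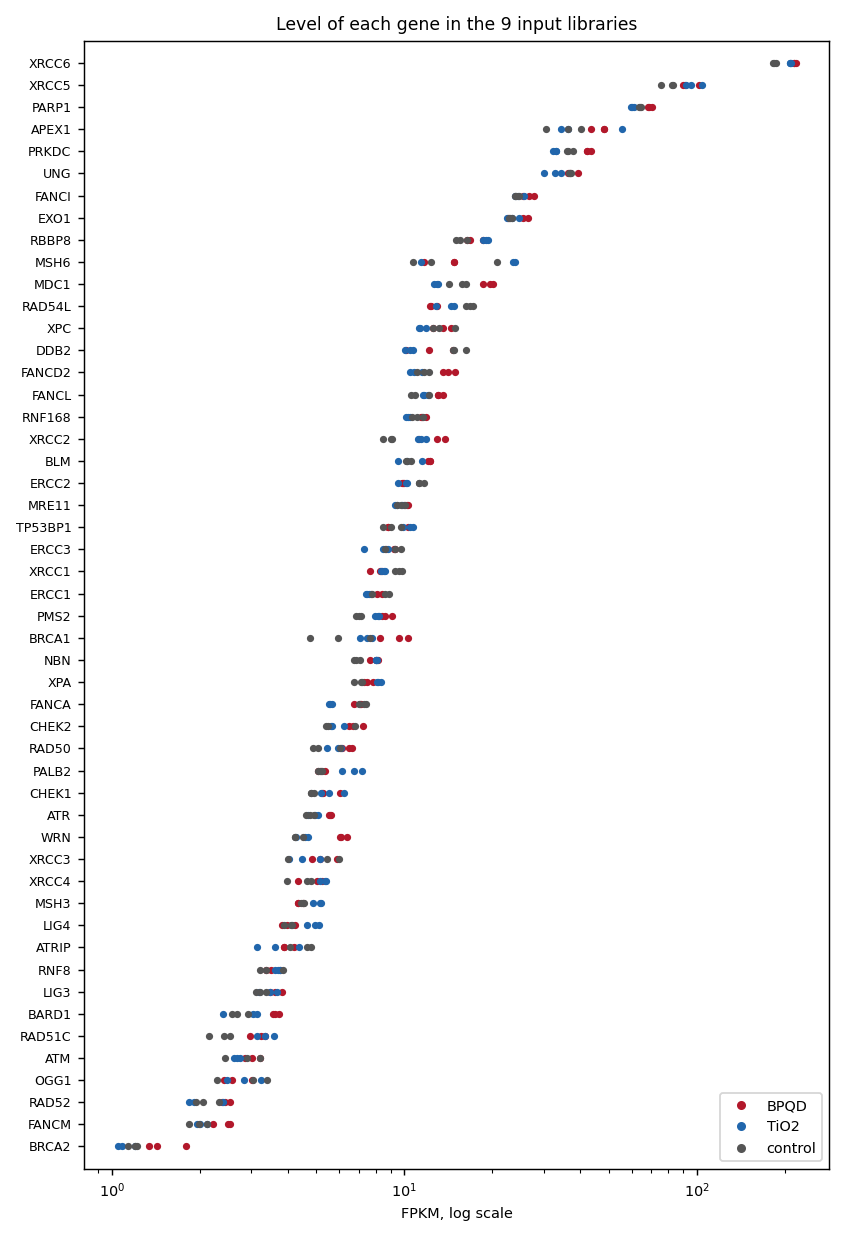
FPKM of each of the 50 genes in the 9 input libraries on a logarithmic axis, ordered by the mean over all libraries, with points for BPQD, TiO2 and control. XRCC6 stands highest at a mean of 204 FPKM and BRCA2 lowest at 1.27 FPKM, and most genes move little against the distance between genes.

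Levels of the 50 genes, compared per length, covered a wide range in these cells. XRCC6 had the highest mean over all 9 libraries, 204 FPKM with a range of 183 to 218, followed by XRCC5 at 90.7 FPKM and PARP1 at 64.6 FPKM, and these 3 did not overlap each other in any library. APEX1, PRKDC and UNG came next, at 41.6, 37.4 and 35.6 FPKM, with overlapping ranges. BRCA2 was lowest, at 1.27 FPKM with a range of 1.05 to 1.79. Of the 50 means, 36 were at least 5 FPKM and 6 were under 3 FPKM, no gene was at 0 in any library, and their median of 7.95 FPKM compares with 5.52 FPKM over all tested genes. The ratio of XRCC6 to XRCC5, whose products form a dimer, was 2.14 to 2.39 with BPQD, 2.02 to 2.27 with TiO2 and 2.21 to 2.44 in the control.

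Most repair genes are long, and long genes were more often higher in both exposures. Of the 50, 41 have a longer span than the median tested gene. In the longest tercile of all tested genes, above 46.2 kb, 27.3% were higher and 17.9% lower with BPQD than in the control, while in the shortest tercile 13.6% were higher and 27.1% lower. Of the repair genes, 28 fall in the longest tercile, of which 15 were higher and 0 lower with BPQD (13 not called). In the middle tercile 5 of 20 were higher and 3 lower with BPQD, near the 21.0% and 25.2% of all genes there. The shortest tercile holds 2, with neither called. With TiO2 the longest tercile held 4 higher and 3 lower repair genes, where 22.7% of all genes there were higher and 16.1% lower. The middle tercile held 6 higher and 7 lower of 20 with TiO2, where 19.2% of all genes there were higher and 22.7% lower. In the shortest, 1 of 2 was higher and 0 lower with TiO2. Across the 50 genes, which share the same libraries, Spearman's rho of span with log2 fold change was 0.27 with BPQD and 0.27 with TiO2, against 0.14 and 0.18 over all 12224 genes. The part of gene length in the counts above was not tested. Overlap also limits single genes: 40 of the 50 overlap another gene, and for ATM with NPAT, CHEK1 with STT3A, XRCC3 with KLC1, XRCC4 with TMEM167A and OGG1 with TADA3 that gene's mean level is at least as high. Pseudogenes named after the gene are listed for 10 of the 50, CHEK2, BRCA1, RAD52, MRE11, RBBP8, XRCC6, PARP1, UNG, FANCD2 and PMS2. Whether the authors' counting used strand is not given in the sources used here, so reads of overlapping genes may be shared.

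A list of 94 other repair genes, of which 89 were tested, was counted beside them. With BPQD 29 were higher and 10 lower than in the control (32.6% and 11.2%), where 20.6% and 23.4% of all tested genes were called. With TiO2 19 were higher and 19 lower (21.3% each), near the 17.3% and 20.5% of all tested genes. Between the materials, 22 were higher and 5 lower with BPQD than with TiO2 (24.7% and 5.62%), where 19.0% and 18.6% were called. POLQ, the polymerase of theta-mediated end joining, rose to 8.46, 8.41 and 8.05 FPKM with BPQD, against 5.48, 5.25 and 4.84 FPKM in the control (0.59 ± 0.04, limma adjusted p = 4.2e-05). MPG, the alkyladenine glycosylase gene of base excision, fell to 8.28, 7.74 and 8.47 FPKM with BPQD, against 14.4, 13.9 and 14.6 FPKM in the control (-0.74 ± 0.04, limma adjusted p = 1.6e-05). GTF2H3, a TFIIH subunit gene, rose with both materials, by 0.63 ± 0.13 and 0.59 ± 0.13 (limma adjusted p = 0.00613 and 0.00955). LIG1, the replicative ligase gene, fell with BPQD (-0.27 ± 0.03, limma adjusted p = 0.000402), CETN2, a partner of XPC, rose with TiO2 (0.48 ± 0.04, limma adjusted p = 0.000109), and RECQL4 and DDB1 fell with TiO2 (-0.42 ± 0.11 and -0.32 ± 0.05, limma adjusted p = 0.0227 and 0.00176). DDB1 encodes the binding partner of DDB2.

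Genes that mark p53 activity and the cell cycle were set beside the repair genes. Over all tested genes, 20.6% were higher and 23.4% lower with BPQD, and 17.3% were higher and 20.5% lower with TiO2. Of 18 tested p53 targets, 1 was higher and 7 lower with BPQD, and 2 were higher and 8 lower with TiO2. GADD45A, a stress-induced p53 target, rose to 13.9, 13.9 and 12.5 FPKM with BPQD and to 9.52, 12.0 and 12.5 FPKM with TiO2, against 6.23, 8.46 and 8.28 FPKM in the control (0.75 ± 0.13 and 0.51 ± 0.13, limma adjusted p = 0.00238 and 0.0158). BTG2, an antiproliferative p53 target, fell to 6.59, 6.55 and 6.88 FPKM with BPQD and to 7.24, 7.15 and 6.55 FPKM with TiO2, against 12.4, 11.9 and 12.2 FPKM in the control (-0.78 ± 0.04 and -0.72 ± 0.04, limma adjusted p = 1.1e-05 and 1.8e-05). Of 16 G2/M genes, 10 were higher and 0 lower with BPQD (6 not called), and 5 were higher and 4 lower with TiO2. The mitotic cyclin gene CCNA2 rose with BPQD by 0.37 ± 0.02 and the checkpoint kinase gene BUB1B by 0.34 ± 0.06 (limma adjusted p = 1.3e-05 and 0.0039), while the mitotic kinase genes PLK1 and AURKB fell with TiO2 by 0.33 and 0.30 on the log2 scale (limma adjusted p = 0.00738 and 0.019). Of 18 S phase genes, 3 were higher and 6 lower with BPQD, and 3 higher and 7 lower with TiO2. The 16.7% of S phase genes higher in either exposure is near the share of all tested genes. CCNE1, the cyclin of S phase entry, and RRM2, a ribonucleotide reductase gene, fell with BPQD (-0.75 ± 0.12 and -0.72 ± 0.22, limma adjusted p = 0.00196 and 0.0284), and the licensing gene CDT1 and the thymidine kinase gene TK1 fell with TiO2 (-0.41 ± 0.04 and -0.39 ± 0.06, limma adjusted p = 0.000319 and 0.00254). Recombination genes are themselves transcribed more in S and G2 phase, and the part of cell cycle stage in the repair gene values was not tested.

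The authors' deposited table of m6A peaks for BPQD against control held 65 peaks in 37 of the 50 repair genes, and that for TiO2 against control held 54 in 32. Some entries in the authors' deposited tables are nearly the same region given again, and the peaks cover 59 and 49 separate regions. At the authors' p under 0.05, the authors' deposited table for BPQD gave 40 higher and 12 lower peaks (61.5% and 18.5%), where 37.7% and 27.1% of all 14903 peaks in it were called higher and lower. The median log2 fold change of m6A in that authors' deposited table was 0.28 over the repair gene peaks and 0.16 over all. For TiO2 the authors' deposited table gave 26 higher and 15 lower peaks (48.1% and 27.8%), where 40.3% and 23.8% of all 12888 were called, with medians of 0.11 and 0.15. Of the 54 TiO2 peaks in the authors' deposited table, 16 are over 2000 bases wide, and with these left out the higher count was 15. At the authors' FDR under 0.05 the lower count in the authors' deposited table for BPQD was 7. No share of all peaks is given for these settings. These values compare the IP and input libraries as the authors combined them, no replicate spread is given with them, and the peak caller is not given in the sources used here. Of the BPQD peaks, 27 also overlap another gene, as do 21 of the TiO2 peaks in the authors' deposited tables.

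**Figure D4:**
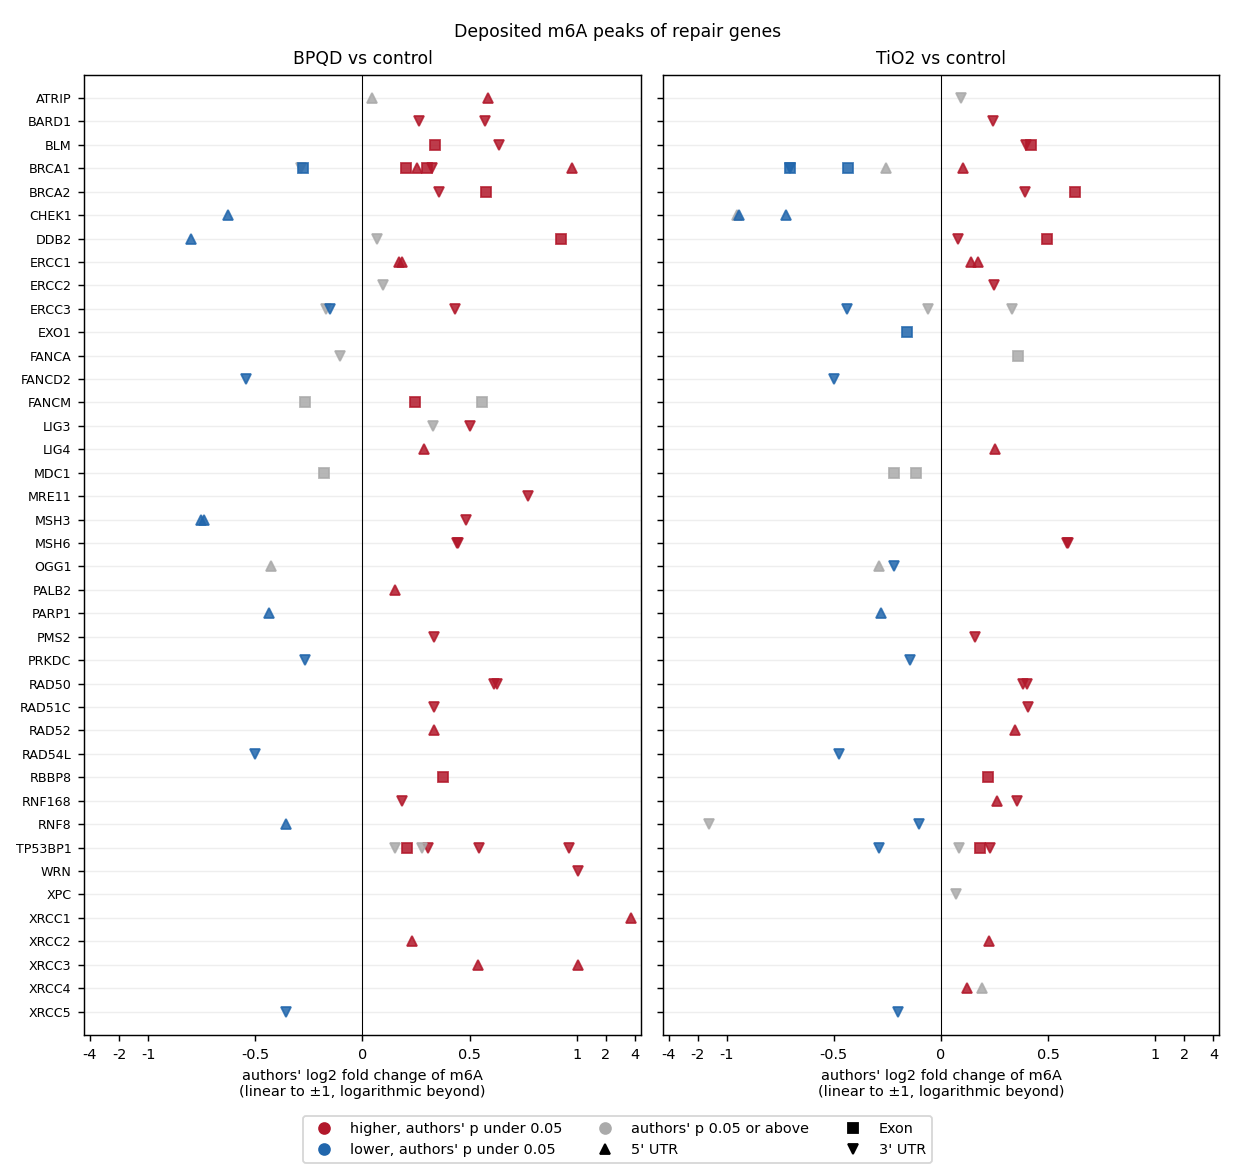
The authors' log2 fold change of m6A for each deposited peak in the repair genes, BPQD against control on the left and TiO2 against control on the right, with marker shape for the annotated position and colour for the call at the authors' p under 0.05. The axis is linear to 1 on either side of 0 and logarithmic beyond. BLM, BRCA2, RAD50 and MSH6 lie to the right in both panels, and PARP1, PRKDC, XRCC5, RAD54L and FANCD2 to the left in both.

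Higher m6A was spread over all annotated positions with BPQD. By the position that the authors annotated, the authors' deposited table for BPQD called 12 of 20 peaks higher and 6 lower in the 5′ UTR, 8 of 12 higher and 1 lower in exons, and 20 of 33 higher and 5 lower in the 3′ UTR. Of all peaks in that authors' deposited table, 30% were higher and 35.8% lower in the 5′ UTR, 35.6% and 18.4% in exons, and 43.3% and 28% in the 3′ UTR, so the 30% of repair gene peaks lower in the 5′ UTR is near the share of all peaks there. For TiO2 the authors' deposited table called 8 of 15 peaks higher and 3 lower in the 5′ UTR, 5 of 11 higher and 3 lower in exons, and 13 of 28 higher and 9 lower in the 3′ UTR. Of all peaks in that authors' deposited table, 43.9% were higher and 22.9% lower in the 5′ UTR, 31.9% and 17.2% in exons, and 43% and 28% in the 3′ UTR.

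With BPQD, the 3 smallest p among the higher peaks were in recombination genes. At the start of XRCC3, a homologous recombination gene, the authors' deposited table for BPQD listed a peak (chr14:103711400-103714249, 5′ UTR) at 1.02 on the log2 scale (authors' p = 1.58e-64), and a second entry over nearly the same bases at 0.54 (authors' p = 9.77e-08). That region also overlaps KLC1 on the other strand, and both entries are given as deposited. In BLM, a 3′ UTR peak of 570 bases (chr15:90760647-90761216) was higher by 0.64 with BPQD (authors' p = 5.01e-19) and by 0.40 with TiO2 (authors' p = 2.51e-08) in the authors' deposited tables, and an exon peak (chr15:90749389-90751827) by 0.34 and 0.42. The XRCC2 entry in the authors' deposited tables spans 30352 bases from start to end, introns included, and was higher by 0.23 with BPQD (authors' p = 5.01e-18) and by 0.225 with TiO2 (authors' p = 1.26e-16). MRE11 had a 3′ UTR peak higher by 0.77 with BPQD in the authors' deposited table (authors' p = 1.82e-09). A BARD1 entry annotated as 3′ UTR in the authors' deposited table was higher by 0.57 with BPQD (authors' p = 5.01e-13). That entry spans 21520 bases, introns included. With TiO2 an entry over nearly the same bases was higher by 0.24 in the authors' deposited table (authors' p = 0.00182). A narrower BARD1 entry of 1746 bases, also annotated as 3′ UTR in the authors' deposited table, was higher by 0.265 with BPQD (authors' p = 0.0209). For BRCA2 the authors' deposited tables gave an exon peak at 0.58 with BPQD and 0.62 with TiO2, and a 3′ UTR peak at 0.36 and 0.39. RBBP8 had an exon peak of 628 bases at 0.37 with BPQD and 0.22 with TiO2 in the authors' deposited tables (authors' p = 2.51e-12 and 9.12e-06).

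BRCA1 was mixed, with 7 peaks in the authors' deposited table for BPQD and 5 in that for TiO2. With BPQD the authors' deposited table gave 0.325 for the peak at chr17:43092428-43092787 and 0.255 for the neighbouring peak at chr17:43093415-43094762 (authors' p = 0.000372 and 3.16e-07). With TiO2 the 3′ UTR peak at chr17:43044355-43044475 stood at -0.70 (authors' p = 0.00214) in the authors' deposited table. The TiO2 entry at chr17:43093475-43094702 stood at 0.10 in the authors' deposited table (authors' p = 0.0372). Entries in the authors' deposited tables between positions 43159576 and 43166394 are annotated to an exon of the overlapping gene ENSG00000267002 and cannot be assigned to BRCA1 alone. Of the signalling genes, RNF168 had a 3′ UTR peak at 0.185 with BPQD and 0.355 with TiO2 in the authors' deposited tables (authors' p = 5.62e-05 and 7.94e-15). TP53BP1 had a 3′ UTR peak (chr15:43407705-43408483) at 0.55 with BPQD in the authors' deposited table (authors' p = 1.07e-10), which also overlaps TUBGCP4. The TiO2 entry within those bases (chr15:43407735-43408453) stood at 0.23 in the authors' deposited table (authors' p = 0.00501). The MDC1 peaks, which also lie in the antisense gene MDC1-AS1, were not called in the authors' deposited tables (authors' p = 0.0759 with BPQD and 0.0537 with TiO2). MSH6 had a 3′ UTR peak (chr2:47807675-47808214) at 0.45 with BPQD and 0.59 with TiO2 (authors' p = 3.98e-15 and 7.94e-27), in a stretch that the authors' deposited tables do not separate from FBXO11.

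Lower m6A was found in both of the authors' deposited tables for XRCC5, PRKDC, PARP1, RAD54L, FANCD2, CHEK1 and RNF8, none of which had a higher peak in either table. The lower RNF8 peaks lie in different regions in the authors' deposited tables (authors' FDR 0.158 with BPQD and 0.139 with TiO2). The FANCD2 peak, which also lies in FANCD2OS, had an authors' FDR of 0.0933 with BPQD and 0.151 with TiO2. For CHEK1 with BPQD the authors' FDR was 0.137, and that peak also overlaps STT3A. The XRCC5 3′ UTR peak (chr2:216204378-216205378) stood at -0.36 with BPQD and -0.20 with TiO2 in the authors' deposited tables (authors' p = 7.94e-18 and 2.14e-07). The PRKDC 3′ UTR peak, of 2797 bases, stood at -0.27 and -0.15 in the authors' deposited tables (authors' p = 2.88e-08 and 0.00162). For PARP1, the authors' deposited tables placed a 5′ UTR peak of 181 bases at chr1:226407913-226408093, which ends at the base before the promoter printed above, at -0.44 with BPQD and -0.28 with TiO2 (authors' p = 1.62e-07 and 0.00055). PRKDC and PARP1 thus had lower m6A in the authors' deposited tables with both materials, while their RNA rose with BPQD and fell with TiO2. The RAD54L entry stood at -0.50 and -0.48 in the authors' deposited tables (authors' p = 0.000891 and 0.00148), but only 25 of its 241 bases lie in RAD54L and the rest in LRRC41. DDB2 held peaks of opposite sign with BPQD in the authors' deposited table, at -0.80 for 210 bases at its start (authors' p = 0.00427) and at 0.93 in an exon (authors' p = 4.79e-06). The highest value in the authors' deposited table for BPQD among these genes, 3.66 for a peak of 180 bases within XRCC1 (authors' p = 0.00457), also overlaps PINLYP.

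Genes were also grouped by the call on their RNA. Of the 20 genes whose RNA was higher with BPQD, 15 had a peak in the authors' deposited table. In that authors' deposited table, 9 of the 15 had higher peaks and no lower one, 4 had lower peaks and no higher one, BRCA1 had both and MDC1 had no called peak. Among all tested genes with higher RNA, a symbol that occurs once and a peak in the authors' deposited table, 44.7% had higher peaks without a lower one and 30.2% the reverse, against 60% and 26.7% of the 15 repair genes. Of the 3 whose RNA was lower with BPQD, XRCC1 had a higher peak, RAD54L a lower peak and ERCC2 no called peak in the authors' deposited table. Of the 27 not called, 19 had a peak in the authors' deposited table, of which 12 had higher peaks without a lower one, 2 the reverse, 3 (DDB2, ERCC3 and MSH3) had both and 2 (FANCA and OGG1) had no called peak. For all tested genes not called with BPQD, the authors' deposited table gave 43% and 28.6%, against 63.2% and 10.5% of these 19. With TiO2, 6 of the 11 genes with higher RNA had a peak in the authors' deposited table, with higher peaks in 5 and a lower peak in 1 (44.2% and 30.5% of all such genes). Of the 10 with lower RNA, 8 had a peak in the authors' deposited table, with higher peaks in 2, lower peaks in 3 and no called peak in FANCA, MDC1 and XPC (38.9% higher and 30.7% lower among all such genes). No test was run on these counts. No peak was listed in either of the authors' deposited tables for APEX1, ATM, ATR, CHEK2, FANCI, FANCL, NBN, UNG, XPA and XRCC6, which make 10 of the 50 genes.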

How the data were processed

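RNA of cells labelled A549 was measured in 9 input libraries, 3 per group, and in m6A-precipitated libraries that enter here only through the authors' peak tables. Samples were grouped by their titles and treatment labels. The authors deposited FPKM per gene, per the file headers. The submitters' processing notes name HISAT2, without a version, StringTie 1.3.0 and the mouse build mm10, but the gene IDs are human and the positions of 24557 symbols matched a GRCh38 table on the same chromosome in 100.0%, so coordinates are read as GRCh38. For each peak the authors deposited, by the table headings, a log2 fold change for m6A, a p-value and a log10 FDR (used as a score), and how these were computed is not given in the sources used here. Peaks were assigned to a gene by the gene name in those tables, and 12 columns of FPKM per sample in them were not used.

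Group means were fitted in R 4.3.3 with limma 3.58.1 (trend) to log2(FPKM + 1) of the 12224 genes averaging 1 FPKM or more, all 9 libraries in 1 fit, two-sided, with Benjamini-Hochberg adjustment over all of them. The steps were tested on simulated data. Tables and plots used Python 3.11.15, pandas 2.3.3 and matplotlib 3.10.9. Members, routes, lists and the 6 genes set against the A549 label were chosen with earlier results of these data known. Values per library were given, in each route, for up to 3 called members with the largest change against the control in each comparison, for up to 6 between the materials, and for others singled out after their values had been seen. Alternatives were a pseudocount of 0.1, no filter, a mean of at least 5 FPKM, values rescaled to TPM, median centring, only the 6 libraries compared, a replicate block, each library left out in turn, and, for peaks, the authors' FDR under 0.05, p under 0.01 and a width of at most 2000 bases. Promoters are from RefSeq.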

Additional observations from a re-analysis of the deposited data

Results flagged for a closer look

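MDC1, PRKDC and PARP1 were called higher with BPQD and lower with TiO2, each against the same control libraries, and the direct test of BPQD against TiO2 was passed by all 3. The log2 difference, BPQD minus TiO2, was 0.56 ± 0.05 for MDC1, 0.37 ± 0.03 for PRKDC and 0.19 ± 0.02 for PARP1 (SE, limma adjusted p = 0.000148, 3.8e-05 and 0.000281). No explanation was tested.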

How the results depend on the processing

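Of 99 calls and changes of at least 0.1 followed through the alternatives, 56 kept their direction and their side of the threshold in all of them. Leaving out 1 library at a time gave 15 to 21 repair genes higher and 3 to 4 lower with BPQD than in the control, 11 to 13 higher and 8 to 10 lower with TiO2, and 11 to 15 higher and 3 to 5 lower with BPQD than with TiO2. The other settings gave 15 (no filter) to 27 (rescaled to TPM) higher with BPQD, 8 to 13 higher and 8 to 11 lower with TiO2, and 10 to 19 higher between the materials, all within 1.5 times the reported counts. The share of all genes called also changed, and none is given for the fits without 1 library. With no filter, 8.79% of 36576 genes were higher with BPQD and 9.37% between the materials, and 4.83% were higher and 5.84% lower with TiO2. At a mean of at least 5 FPKM, 36 of the 50 were tested. Of all 6504 genes there, 26.4% were higher with BPQD and 21.1% between the materials, and 24.7% were higher and 24.0% lower with TiO2. With no filter on low values, which raises the number of genes tested, the calls of BRCA2, RAD50, XRCC5, FANCI and FANCM with BPQD, UNG and XPC with TiO2, and BRCA2, BARD1, FANCL, FANCM, XPA and XPC between the materials were lost. With only the 6 libraries compared, BRCA2 and RAD50 with BPQD, XPC with TiO2, and BRCA2, BARD1, BLM, FANCM and XPA between the materials were lost. The replicate block lost FANCM with BPQD, XPC with TiO2, and BARD1, FANCL, FANCM, XPA and XPC between the materials. Rescaling lost XPC with TiO2 and XPA between the materials, median centring lost XPA there, and a pseudocount of 0.1 lost BRCA2 with BPQD. The only change of direction was APEX1 with TiO2, at 0.21 with all libraries and between -0.0068 (without TiO2 replicate 2, adjusted p = 0.971) and 0.33 (without TiO2 replicate 3) with a library left out. In the authors' deposited tables, the 12 lower BPQD peaks became 7 at the authors' FDR under 0.05 and 7 at p under 0.01, because the threshold is stricter, and the 26 higher TiO2 peaks became 15 with peaks of at most 2000 bases, because wider peaks were left out. No share of all peaks is given for these settings. Same-numbered libraries did not deviate together (correlation -0.083 to 0.073 over 9 pairs). The labels do not say whether the numbers pair samples, and this correlation cannot exclude it. With the replicate number as a block in the fit, 21 genes were higher and 4 lower with BPQD, 13 higher and 10 lower with TiO2, and 12 higher and 3 lower with BPQD than with TiO2. Of all tested genes, 19.2% and 21.6%, 15.6% and 18.4%, and 17.2% and 16.8% were called in that fit, in the same order. Depth is unknown, so precision rests on 3 libraries a group.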
